A study of Mus musculus with 6 samples.

Results

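The genes described here are the mouse Hox genes, the homeobox transcription factor genes of the Hoxa, Hoxb, Hoxc and Hoxd clusters. Every row of the authors' table whose gene name holds a Hox symbol of 1 of the 4 clusters was taken. This gave 39 genes in 35 separate measurements, of 51482 measurements in all, because 4 rows carry a pair of Hox genes each (Hoxa2 with Hoxa3, Hoxc5 with Hoxc10, Hoxd3 with Hoxd4, and Hoxd10 with Hoxd11). RNA came from wild-type mouse embryonic fibroblasts immortalised with SV40, and the design describes 3 biological replicates per condition. Normoxia was 21% oxygen and hypoxia 0.5% oxygen, each for 16 h, with no other treatment named in the labels. Levels are in FPKM, fragments counted relative to transcript length and library size, and the table holds 1 such value for a gene in each condition. No value of a single sample was analysed here, so no value below has an SD, and the depth of the libraries is unknown. The labels do not say whether the replicates were separate cultures, so the authors' p-values measure the spread between these samples, which may be partly technical. The cells are an immortalised line, and its clonality is not described.

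Hox genes encode homeodomain proteins that tell cells where they lie along the head-to-tail axis and along the limbs. Each cluster is a row of genes read in the same direction, and the low-numbered genes at its 3' end are active in more anterior tissue than the high-numbered genes at its 5' end. Genes with the same number in different clusters are paralogues. Fibroblasts are known to keep a Hox pattern of their body site in culture, so the set of active Hox genes in a fibroblast line can reflect where its founder cells came from. Polycomb complexes hold silent Hox genes off, Trithorax (MLL) complexes hold active ones on, and retinoic acid switches on genes at the 3' end of the clusters during development.

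In these cells most genes of the Hoxa, Hoxb and Hoxc clusters were measured above 1 FPKM in both conditions. Of 7 Hoxd measurements 5 lay below 1 FPKM in both, while the Hoxd3 and Hoxd4 row was at 3.37 and 2.76 FPKM. In hypoxia 13 Hox measurements rose and 8 fell among the 30 that the authors tested, 9 were not called, and 5 were not tested. Here "rose" and "fell" stand for a q-value (a p-value adjusted over all tested genes) below 0.05 in the authors' deposited table. The table calls 57.9% of all 14575 tested measurements, 28.9% higher and 29.0% lower, against 70.0% of the tested Hox measurements, 43.3% higher and 26.7% lower. Above a mean of 1 FPKM the background was 32.1% higher and 30.9% lower, and 12 and 7 of 27 Hox measurements were so called. By ratio, Hoxc6, Hoxb9 and Hoxc13 had the largest rises, and Hoxb3, Hoxd8 and Hoxa7 the largest falls.

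Few of the 30 tested Hox measurements were called at 2-fold or more: 2 upwards (Hoxc6 and Hoxb9) and 1 downwards (Hoxb3). Calls of that size made up 9.03% (higher) and 9.87% (lower) of all tested measurements. The 3 called Hox genes past 2-fold are 14.3% of the called Hox measurements, against 32.6% of all called measurements. Hoxb1, Hoxd1, Hoxd9 and Hoxd12 also had values lower by more than 2-fold in hypoxia, but at 0.174 FPKM or less they were not tested. The median log2 fold change, on the scale of log2(FPKM + 1), was 0.10 over the 27 Hox measurements whose mean reached 1 FPKM and 0.0027 over all 12127 such tested measurements. The Hox value moved with the filter, to 0.39 at a mean of at least 5 FPKM and 0.28 over Hox measurements alone in their locus. No median over all measurements was taken under those settings, so 0.0027 is not their background. Of the 27 Hox measurements, 55.6% had the higher value in hypoxia, against 50.2% of all 12127.

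**Figure D1:**
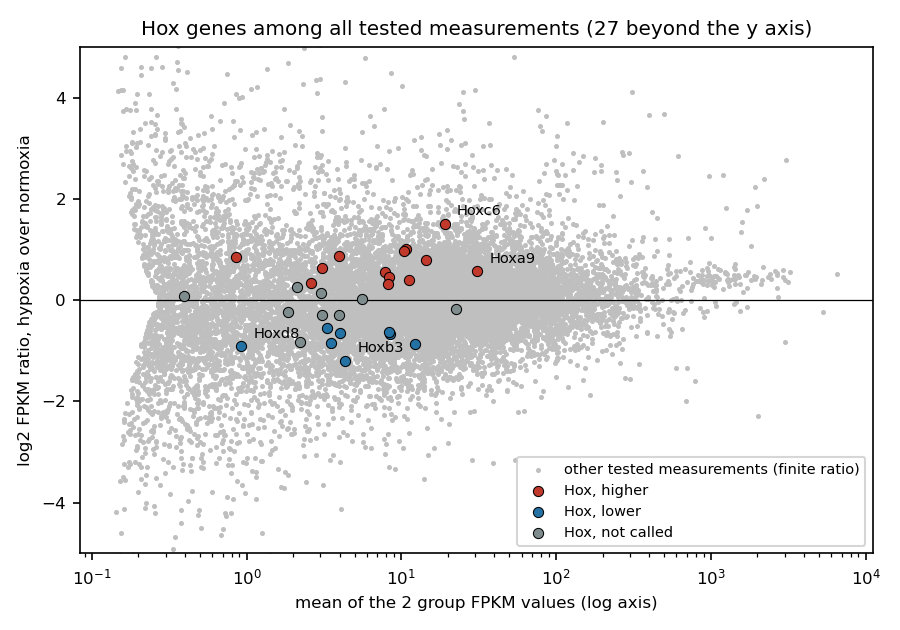
Log2 ratio of FPKM in hypoxia over normoxia (vertical axis) against the mean of both group FPKM values (horizontal log axis) for every tested measurement with a finite ratio, with Hox genes coloured by the authors' call. Hox genes lie inside the cloud of other genes, Hoxc6 is the highest of them at a log2 ratio of 1.51 and Hoxb3 the lowest at -1.19, and 27 other points lie beyond the axis limits.

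The genes with the largest ratios went in both directions. Hoxc6 (chromosome 15, 102998257 to 103011881 on GRCm38, plus strand), a thoracic-level gene in the embryo, rose 2.85-fold, from 9.89 to 28.2 FPKM (q = 0.000139 in the authors' deposited table, the smallest q it holds). Hoxb9 (chromosome 11, 96271457 to 96276595) rose 2.02-fold, from 7.12 to 14.4 FPKM, and Hoxc13, the gene at the 5' end of its cluster (chromosome 15, 102921103 to 102928814), rose 1.97-fold, from 7.02 to 13.8 FPKM. With that rise Hoxc6 became the second most abundant Hox measurement in hypoxia, after Hoxa9. Hoxb3 (chromosome 11, 96323326 to 96347930), a hindbrain gene in the embryo, fell 2.28-fold, from 6.01 to 2.63 FPKM (q = 0.00328 in the authors' deposited table). Hoxc6 and Hoxb3 share their locus with other measurements, so their values, and the rank of Hoxc6, are uncertain. Hoxb9 and Hoxc13 are each alone in their locus.

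Promoter sequences of 4 called Hox genes are shown because the genes moved in opposite directions. RefSeq promoters (250 bases before to 50 after the start, GRCm38.p6) were at hand for 22 of the 39 Hox genes, not including Hoxc6, Hoxb9, Hoxc13 or Hoxb3. The 4 below are, among called genes with a row of their own and a promoter entry, the 2 with the largest rise (Hoxb8 and Hoxa9) and the 2 with the largest fall (Hoxd8 and Hoxa7). The windows follow RefSeq start sites, so those of Hoxa9 and Hoxa7 lie inside the longer gene intervals that GENCODE gives and that are printed for these genes here. Hoxa9 and Hoxa7 are next to each other in the Hoxa cluster, and Hoxb8 and Hoxd8 are paralogues. The letters ACGTG and GCGTG, the core that hypoxia-inducible factors bind, were searched on both strands and would be capitalised; none of the 4 windows holds them.
Hoxb8, chr11:96281655-96281954, plus strand: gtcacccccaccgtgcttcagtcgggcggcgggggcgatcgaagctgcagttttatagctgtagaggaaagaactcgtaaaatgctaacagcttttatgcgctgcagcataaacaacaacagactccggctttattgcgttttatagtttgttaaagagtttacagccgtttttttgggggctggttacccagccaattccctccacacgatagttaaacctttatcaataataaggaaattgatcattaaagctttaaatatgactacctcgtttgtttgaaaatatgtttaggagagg
Hoxa9, chr6:52227321-52227620, minus strand: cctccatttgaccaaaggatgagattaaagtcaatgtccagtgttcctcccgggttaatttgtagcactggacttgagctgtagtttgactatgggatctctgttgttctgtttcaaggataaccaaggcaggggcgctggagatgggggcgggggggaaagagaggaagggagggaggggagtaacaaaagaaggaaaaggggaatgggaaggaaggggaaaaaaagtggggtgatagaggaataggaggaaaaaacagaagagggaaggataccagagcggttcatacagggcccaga
Hoxd8, chr2:74704365-74704664, plus strand: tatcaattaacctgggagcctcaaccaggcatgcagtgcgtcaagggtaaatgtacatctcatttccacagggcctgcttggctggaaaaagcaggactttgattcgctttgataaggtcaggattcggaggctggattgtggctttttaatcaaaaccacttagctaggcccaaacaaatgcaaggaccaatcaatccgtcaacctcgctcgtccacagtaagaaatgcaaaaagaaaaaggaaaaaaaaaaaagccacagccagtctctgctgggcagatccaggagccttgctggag
Hoxa7, chr6:52218524-52218823, minus strand: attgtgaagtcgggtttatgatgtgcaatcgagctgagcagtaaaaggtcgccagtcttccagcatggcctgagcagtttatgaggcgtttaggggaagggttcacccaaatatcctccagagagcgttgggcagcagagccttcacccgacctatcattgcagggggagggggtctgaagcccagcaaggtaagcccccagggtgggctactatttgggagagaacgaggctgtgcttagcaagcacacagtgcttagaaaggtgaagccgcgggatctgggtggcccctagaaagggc

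The same letters were found in 14 of 24 Hox promoter windows (58.3%), and in 43.8% of all 32851 promoter windows of this length. The median G and C content was 57.7% in the Hox windows and 52.7% in all windows. Among Hox genes measured on their own, 2 of the 4 windows of genes that rose and 1 of the 4 windows of genes that fell hold a match, as do 2 of 5 windows of genes not called and 2 of 4 of genes not tested. Windows of genes that share a row are left out of these counts, and they hold matches more often. The difference between 58.3% and 43.8% comes from those windows and was not tested. The 5 matches in called genes, in Hoxa5 (which fell) and in Hoxa11 and Hoxb4 (which rose), are printed with the bases around them and the match in capitals. A match is a description of the letters and does not show that a factor binds there.
Hoxa5, chr6:52204803-52204832, minus strand: tatcctcgccggGCGTGcgatcggcagctg
Hoxa11, chr6:52246020-52246049, minus strand: acaccggcgattACGTGctttcggtgagaa
Hoxa11, chr6:52245812-52245841, minus strand: gggatagatttcCACGTcagcttacgtctc
Hoxb4, chr11:96318025-96318054, plus strand: ccccgaattagtGCGTGaatttcctatcga
Hoxb4, chr11:96318250-96318279, plus strand: cagacacctagtGCGTGagctccctcttat

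By level, Hoxa genes led. Hoxa9 was the most abundant Hox measurement in both conditions (25.0 FPKM in normoxia, 37.1 FPKM in hypoxia). It was above 71.3% of all tested measurements in normoxia and above 78.4% in hypoxia. In normoxia it was followed by Hoxa10 at 24.04 FPKM, Hoxa7 at 15.8 FPKM, the Hoxc5 and Hoxc10 row at 10.6 FPKM, the Hoxa2 and Hoxa3 row at 10.3 FPKM, Hoxa5 at 10.1 FPKM and Hoxc6 at 9.89 FPKM. In hypoxia the order was Hoxa9, Hoxc6, Hoxa10 (21.3 FPKM), the Hoxc5 and Hoxc10 row (18.4 FPKM), Hoxb9, Hoxc13 and Hoxb2 (12.8 FPKM). Without values of single samples it cannot be said which neighbours in these orders differ beyond their spread.

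A level of 1 FPKM was reached in both conditions by 27 of the 35 Hox measurements. It was missed in both by 6: Hoxb1, Hoxd1, Hoxd9, the Hoxd10 and Hoxd11 row, Hoxd12 and Hoxd13. Of these Hoxd13 was highest, at 0.382 and 0.406 FPKM, and it alone was tested (q = 0.778 in the authors' deposited table). The Hoxd10 and Hoxd11 row stood at 0.217 and 0.240 FPKM, Hoxd1 at 0.174 and 0.0794 FPKM, and Hoxb1, Hoxd9 and Hoxd12 stayed at or below 0.0453 FPKM. The level of 1 FPKM lay between the conditions for Hoxb13, at 0.612 and then 1.11 FPKM in hypoxia, and for Hoxd8, at 1.20 and then 0.641 FPKM. Among paralogue 13 genes, Hoxa13 and Hoxc13 were above 1 FPKM in both conditions.

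**Figure D2:**
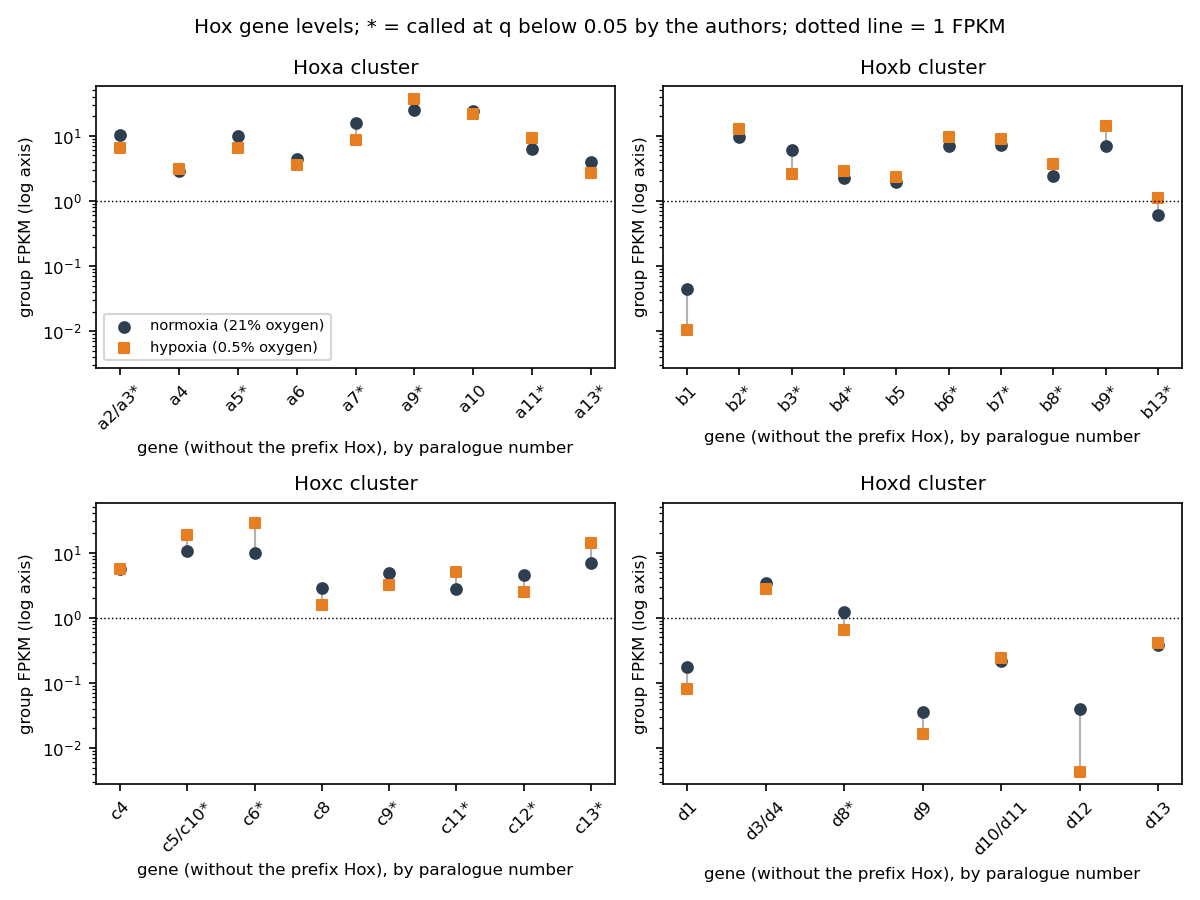
Group FPKM on a log axis for the Hox measurements reported here in normoxia (circles) and hypoxia (squares), 1 panel per cluster, ordered by paralogue number, with asterisks marking q below 0.05 in the authors' table. All Hoxa and Hoxc markers lie above the dotted line at 1 FPKM, while 5 of 7 Hoxd measurements and Hoxb1 lie below it in both conditions.

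The summed FPKM of all Hox measurements was 202.8 at 21% oxygen and 241.8 at 0.5% oxygen (ratio 1.19). The ratio was 1.17 for the summed FPKM of the whole table. By cluster, the Hoxc sum went from 48.1 to 78.3 FPKM (ratio 1.63) and the Hoxb sum from 44.5 to 58.7 FPKM (ratio 1.32). The Hoxa sum was 104.7 and 100.6 FPKM (ratio 0.961). That direction depended on the genes summed, and on Hoxa9 above all. The ratio was 1.16 over the Hoxa measurements alone in their locus (Hoxa9, Hoxa10 and Hoxa13) and 0.796 over the cluster without Hoxa9. Of those alone in their locus, only Hoxa9 had the higher value in hypoxia. The Hoxd sum was 5.42 and 4.15 FPKM (ratio 0.765). As shares of all Hox FPKM, Hoxa made up 51.7% in normoxia and 41.6% in hypoxia, and Hoxc 23.7% and 32.4%. These sums have no test, and abundant genes weigh most in them: without the most abundant gene of each cluster the ratio over all Hox measurements was 1.04.

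**Figure D3:**
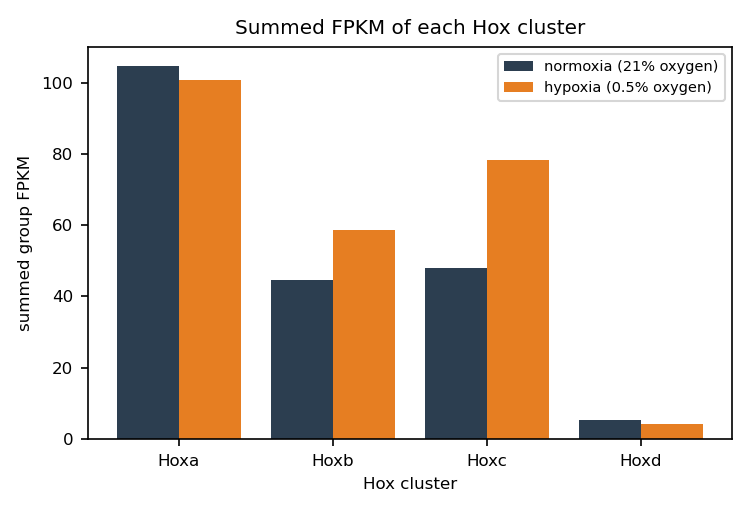
Summed group FPKM of the measurements of each Hox cluster in normoxia (dark bars) and hypoxia (orange bars), from 0. The Hoxc bars rise from 48.1 to 78.3 FPKM and the Hoxb bars from 44.5 to 58.7 FPKM, while the Hoxa bars stand at 104.7 and 100.6 FPKM and the Hoxd bars near the axis.

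The Hoxb cluster (chromosome 11, 96194316 to 96368256, plus strand) had mostly rises. Rises were called for 7 of its 9 tested genes and a fall for 1, and 1 passed in neither direction. All tested measurements were called higher in 28.9% and lower in 29.0%. From the 5' end, Hoxb13 rose 1.81-fold, Hoxb9 2.02-fold, and Hoxb8 1.56-fold, from 2.41 to 3.76 FPKM. Hoxb13, best known from tail and prostate, lies far from the other genes of the cluster. Hoxb7 rose 1.24-fold, from 7.32 to 9.08 FPKM, and Hoxb6 1.38-fold, from 7.05 to 9.72 FPKM. Hoxb4, a gene known for its role in blood stem cells, rose 1.27-fold, from 2.29 to 2.90 FPKM, and Hoxb2 rose 1.32-fold, from 9.75 to 12.8 FPKM. Hoxb5 was not called, at 1.95 and 2.32 FPKM (q = 0.404 in the authors' deposited table). The genes that rose by the least were nearest the threshold: q in the authors' deposited table was 0.0278 for Hoxb7, 0.0135 for Hoxb4 and 0.01003 for Hoxb2. It was 0.00254 for Hoxb6, 0.000518 for Hoxb8, 0.000269 for Hoxb13 and 0.000139 for Hoxb9.

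Hoxb3 was the exception, and it shares its stretch of the genome with a gene that rose. The table assigns each measurement to a locus, a stretch of overlapping transcripts. The locus of Hoxb3 (chromosome 11, 96323326 to 96354691) also holds Hoxb2, the antisense transcript Hoxb3os and Gm11536. In GENCODE the intervals of Hoxb3 (96323326 to 96347930) and Hoxb2 (96350525 to 96354012) do not overlap each other. The summed FPKM of the 4 measurements was 16.8 in both conditions, with Hoxb3 lower and Hoxb2 higher. FPKM is relative to length, so an equal sum does not show that reads passed between genes. How reads in this locus were divided is not described in the sources used here and was not tested. Both values are uncertain for that reason.

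The Hoxc cluster (chromosome 15, 102921103 to 103036852, plus strand) held large changes in both directions between neighbours. Of its 8 tested measurements 4 rose, 2 fell and 2 were not called, beside 28.9% higher and 29.0% lower over all tested measurements. At the 5' end Hoxc13, a gene needed for hair and nails, rose 1.97-fold, but Hoxc12 next to it fell 1.79-fold, from 4.52 to 2.52 FPKM, and Hoxc11 next in line rose 1.82-fold, from 2.78 to 5.08 FPKM. Each of these 3 genes is alone in its locus, and q was 0.000139 for each in the authors' deposited table. Then the row of Hoxc5 and Hoxc10 rose 1.74-fold, from 10.6 to 18.4 FPKM, and Hoxc6 rose as given above, both with q = 0.000139 in the authors' deposited table. Hoxc9 fell 1.57-fold, from 4.94 to 3.15 FPKM (q = 0.0333 in the authors' deposited table). Hoxc8, at 2.82 and 1.59 FPKM, had a lower value by 1.77-fold that was not called (q = 0.0874 in the authors' deposited table). Hoxc4 at the 3' end was at 5.50 and 5.59 FPKM and was not called (q = 0.885 in the authors' deposited table).

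Hoxc5, Hoxc6, Hoxc8, Hoxc9 and Hoxc10 all lie in 1 locus of the table (chromosome 15, 102966796 to 103017429). In GENCODE the gene Hoxc5 runs from 102967443 to 103017429 and so spans Hoxc9, Hoxc8 and Hoxc6. The values of these genes are uncertain for that reason. The summed FPKM of that locus went from 28.2 to 51.3, a ratio of 1.82. That sum has no test, and it rests on the uncertain values of Hoxc6 and of the Hoxc5 and Hoxc10 row.

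In the Hoxa cluster (chromosome 6, minus strand) falls outnumbered rises. Of 10 tested measurements 2 rose, 4 fell and 4 were not called, beside 28.9% higher and 29.0% lower over all tested measurements. Hoxa7 (52214491 to 52221854) fell 1.82-fold, from 15.8 to 8.66 FPKM, Hoxa5, a gene needed for lung and neck structures, fell 1.54-fold, from 10.1 to 6.56 FPKM, and the row of Hoxa2 and Hoxa3 fell 1.59-fold, from 10.3 to 6.49 FPKM. Hoxa13, the gene of hand and foot plate and of the genital tract, fell 1.47-fold, from 3.91 to 2.67 FPKM. Those that rose lie in the 5' part: Hoxa9 (52223100 to 52231089), a gene known from leukaemia, rose 1.49-fold, from 25.0 to 37.1 FPKM, and Hoxa11, a gene of forearm and uterus, rose 1.48-fold, from 6.33 to 9.37 FPKM. In the authors' deposited table q was 0.0162 for the row of Hoxa2 and Hoxa3 (which also carries Gm28308), 0.00937 for Hoxa5 and 0.000139 for the other 4.

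Among Hoxa genes that were not called, Hoxa10, which lies between the risen genes Hoxa9 and Hoxa11, was at 24.04 and 21.3 FPKM (q = 0.141 in the authors' deposited table). Hoxa4 stood at 2.88 and 3.15 FPKM and Hoxa6 at 4.34 and 3.56 FPKM, with q of 0.803 and 0.640 in the authors' deposited table. The 5 measurements from Hoxa2 to Hoxa7 share 1 locus (52162417 to 52221854) with 5 other measurements, antisense transcripts among them. Every Hoxa fall except that of Hoxa13 lies in it.

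The Hoxd cluster (chromosome 2, 74668310 to 74765142, plus strand) had 3 tested measurements. Hoxd8 fell 1.88-fold, from 1.20 to 0.641 FPKM (q = 0.0363 in the authors' deposited table). The row of Hoxd3 and Hoxd4, which also carries Gm28230, was at 3.37 and 2.76 FPKM and was not called (q = 0.149 in the authors' deposited table). Hoxd13, a digit gene in the embryo, was not called either. The row of Hoxd3 and Hoxd4, which cannot be split between these genes, was thus the only Hoxd measurement above 1 FPKM in both conditions. Hoxd1 at the 3' end and the genes from Hoxd9 to Hoxd12, which pattern the limb, had values of at most 0.240 FPKM.

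**Figure D4:**
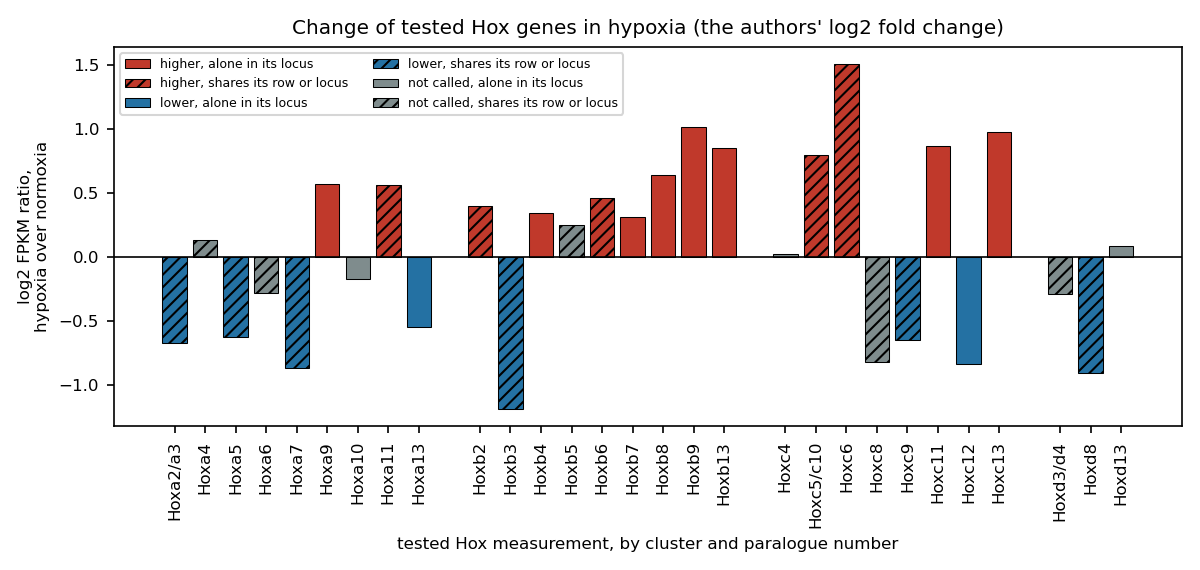
Log2 fold change (hypoxia over normoxia, from the authors' table) of the tested Hox measurements reported here, ordered by cluster and paralogue number, coloured by the authors' call, with hatching where the gene shares its table row or its locus with other genes. Bars of the Hoxb cluster point up except that of Hoxb3, Hoxc6 is the tallest at 1.51, and 6 of the 8 falls are hatched.

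Of the 8 falls, 6 were at measurements that share a row or locus. Of the 17 tested Hox measurements of this kind, 5 rose, 6 fell and 6 were not called. Of the 13 tested ones that are alone in their locus, 8 rose (Hoxb4, Hoxb7, Hoxb8, Hoxb9, Hoxb13, Hoxc11, Hoxc13 and Hoxa9), 2 fell (Hoxc12 and Hoxa13) and 3 were not called. Over all tested measurements, sharing a locus or not, 28.9% were higher and 29.0% lower. Shares over all measurements that are alone in their locus, or that share one, were not taken. The part of overlapping transcripts in the direction of change was not tested.

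Paralogues were compared where no other Hox gene shares their row, though some of them share a locus. Of the 13 paralogue groups 6 had at least 2 called members, and 4 of these 6 had calls in both directions. Since the table as a whole has 28.9% of tested measurements higher and 29.0% lower, this count is given as a description only. In group 7 Hoxa7 fell and Hoxb7 rose; in group 8 Hoxb8 rose and Hoxd8 fell. In group 9 Hoxa9 and Hoxb9 rose and Hoxc9 fell, and in group 13 Hoxb13 and Hoxc13 rose and Hoxa13 fell. The other 2 were group 6, in which Hoxb6 and Hoxc6 rose, and group 11, in which Hoxa11 and Hoxc11 rose. Hoxa7, Hoxd8 and Hoxc9 share their locus with other measurements, so the opposite calls in groups 7, 8 and 9 rest on uncertain values. Hoxb6, Hoxc6 and Hoxa11 share a locus as well. The called members of group 13 are each alone in their locus. By position, 6 of 11 tested measurements of paralogues 9 to 13 rose and 3 fell, 5 of 13 of paralogues 4 to 8 rose and 3 fell, and 1 of 4 of paralogues 1 to 3 rose and 2 fell. The corresponding FPKM sums were 86.9 and 111 FPKM, 73.6 and 85.7 FPKM, and 28.3 and 23.7 FPKM, with rows that join genes of different classes left out.

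Noncoding transcripts of the Hox clusters were measured as well. Of 22 listed RNAs and Evx genes 18 had a row and 10 were tested, of which 4 rose, 1 fell and 5 were not called. For comparison, 28.9% of all tested measurements were higher and 29.0% lower. Hoxaas2, an antisense RNA in the Hoxa2 to Hoxa7 locus, rose 2.87-fold, from 3.37 to 9.66 FPKM, while Hoxa2 and Hoxa3, Hoxa5 and Hoxa7 in that locus fell. Hotairm1, a noncoding RNA of the Hoxa cluster, rose 1.81-fold, from 17.5 to 31.7 FPKM. Hoxa11os, antisense to Hoxa11, rose 1.94-fold, from 15.1 to 29.2 FPKM. Hotair, the Hoxc RNA between Hoxc11 and Hoxc12 that is known for silencing Hoxd genes in trans in human cells, rose 1.95-fold but only from 0.227 to 0.442 FPKM.

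Hottip, an RNA from beyond Hoxa13 known to keep 5' Hoxa genes active, fell 11.8-fold, from 1.59 to 0.135 FPKM, and it was thus low in both conditions. Of the 5' Hoxa genes, Hoxa13 fell, Hoxa9 and Hoxa11 rose, and Hoxa10 was not called. The Hottip, Hotairm1 and Hoxa11os rows also carry the names of short predicted genes inside them. The library kit marks strand, per the labels, but the sources used here do not state whether counting used strand. Sense and antisense values such as those of Hoxa11 and Hoxa11os may therefore share reads. The microRNA genes of the clusters (Mir10a, Mir10b, Mir196a-1, Mir196a-2 and Mir615) are listed at 0 in both conditions, in libraries of poly-A selected RNA that are not made to capture mature microRNAs. Evx1, next to the Hoxa cluster, is listed at 0 in both conditions.

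Genes that flank the clusters were divided, with 3 higher, 3 lower and 4 not called of 10 tested. That is near the 28.9% higher and 29.0% lower of all tested measurements. Calcoco1, near Hoxc, rose 1.81-fold to 75.1 FPKM, and Skap2 and Hibadh, near Hoxa, rose 1.66-fold and 1.27-fold. Atp5g3, near Hoxd, a gene of the ATP synthase c subunit, fell 1.55-fold from 471 FPKM.

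TALE homeodomain proteins, which bind DNA together with Hox proteins, went in both directions. Of 10 tested measurements 2 rose, 4 fell and 4 were not called, next to 28.9% higher and 29.0% lower of all tested measurements. The MEIS family fell together: Meis2 1.498-fold, from 51.1 to 34.1 FPKM, Meis1 1.53-fold, from 6.39 to 4.19 FPKM, and Meis3 1.46-fold, from 7.63 to 5.22 FPKM. Pknox2, a relative of MEIS, fell 2.57-fold, from 5.20 to 2.03 FPKM, and Pknox1 was not called (10.0 and 11.0 FPKM). Pbx4 was called, with a 1.66-fold rise from 13.2 to 21.9 FPKM. Pbx3 was not called at 17.3 and 19.7 FPKM (q = 0.0914 in the authors' deposited table), and Pbx2 shares its row with another gene (45.1 and 53.0 FPKM, q = 0.111 in the authors' deposited table). Of the related repressors, Tgif2 rose 1.24-fold, from 15.1 to 18.7 FPKM, and Tgif1 was not called (23.7 and 22.5 FPKM).

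Of 30 tested genes of the Polycomb complexes 21 rose (70.0%), 2 fell and 7 were not called, next to 28.9% and 29.0% of all tested measurements. All 30 had a mean of at least 1 FPKM, and above that level 32.1% of all tested measurements were higher and 30.9% lower. The list was chosen with earlier results of these data known, so its share is a description only. The median log2 fold change of FPKM + 1 was 0.48. Ezh2 and Ezh1, the enzymes that methylate histone H3 at lysine 27, rose 2.50-fold (62.2 to 155 FPKM) and 3.08-fold (6.18 to 19.1 FPKM). Pcgf5 rose 3.64-fold, from 20.6 to 75.0 FPKM, and Phc3 2.64-fold, from 6.01 to 15.9 FPKM. Pcgf6 and Phc2 went the other way, falling 1.55-fold and 1.28-fold.

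The Trithorax list, which also holds the demethylases that remove the Polycomb mark, had 8 higher, 3 lower and 6 not called of 17 tested, with a median of -0.0062. Shares over all tested measurements were 28.9% higher and 29.0% lower. The demethylase gene Kdm6b rose 3.36-fold, from 7.86 to 26.5 FPKM, and Dot1l and Rbbp5 rose 1.498-fold and 1.66-fold. Setd1b fell 2.14-fold, from 3.66 to 1.71 FPKM, and Wdr5, a core subunit, 1.298-fold. The median is slightly negative although more members rose than fell. Among CTCF and cohesin genes 4 of 8 rose (Wapl 1.93-fold, Smc3 1.77-fold, Stag2 1.59-fold and Nipbl 1.36-fold) and none fell, and Ctcf itself was not called (40.9 and 37.7 FPKM, q = 0.594 in the authors' deposited table).

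Of 15 tested retinoic acid genes 8 fell, 4 rose and 3 were not called (median -0.37), next to 29.0% lower and 28.9% higher of all tested measurements. Aldh1a1, an enzyme that makes retinoic acid, fell 3.14-fold, from 7.50 to 2.39 FPKM, and Stra6, a retinol uptake receptor, 3.00-fold, from 2.22 to 0.740 FPKM. Rarb, a receptor gene that is itself switched on by retinoic acid, fell 2.78-fold, from 5.96 to 2.14 FPKM, and the retinal reductase gene Dhrs3 fell 1.72-fold. Crabp2 and Rarg rose 1.39-fold and 1.32-fold, to 94.3 and 77.1 FPKM. Of the Cdx factors, which switch on central Hox genes in the embryo, Cdx2 and Cdx4 are listed at 0 in both conditions. On the same list Gdf11 fell 2.50-fold, from 3.94 to 1.58 FPKM, and Tbx6 rose from 0.2001 to 0.568 FPKM.

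Of 30 tested transcription factors of mesenchymal position other than Hox, 15 rose, 4 fell and 11 were not called (median 0.19). Beside them, 28.9% of all tested measurements were higher and 29.0% lower. Tbx2 rose from 0.226 to 0.581 FPKM and Irx3 from 0.259 to 0.665 FPKM, both below 1 FPKM throughout. Hand2 and Dlx6 fell 3.11-fold and 2.38-fold, from 2.57 and 4.97 FPKM. Outside the rule by which genes were named, the limb genes Tbx5 (2.08 and 4.54 FPKM, called higher), Tbx4 (0.0119 and 0.0344 FPKM) and Pitx1 (listed at 0) were picked after their values were seen. They are known for separating forelimb from hindlimb tissue in the embryo. Picked in this way, they do not show the body site of these cells, and other limb genes were not set beside them.

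**Figure D5:**
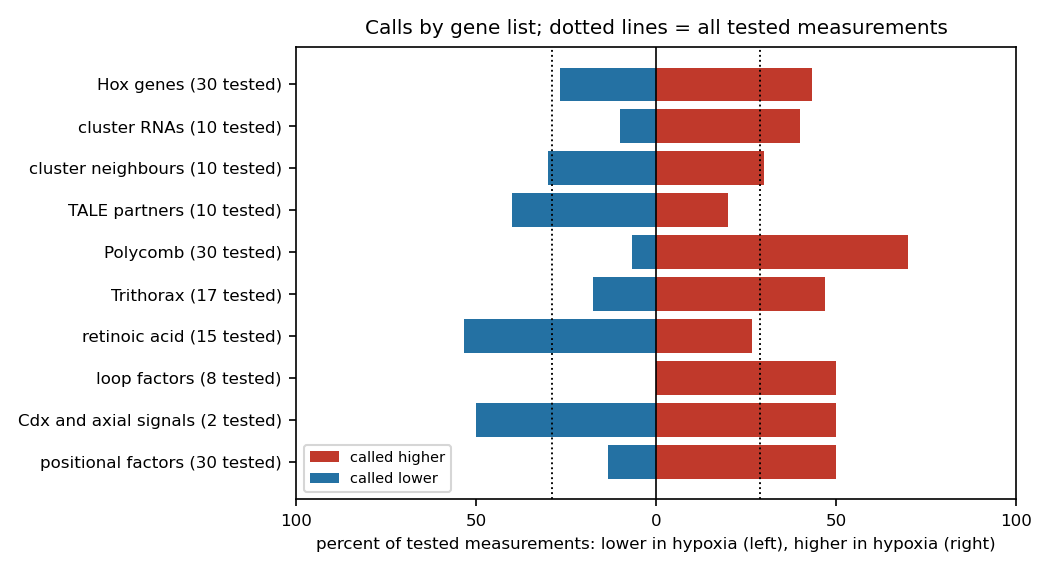
Percent of tested measurements called higher (right) or lower (left) in hypoxia for the Hox genes and each list of partners, regulators and neighbours, with dotted lines at 28.9% and 29.0% for all tested measurements. The Polycomb bar reaches 70.0% on the right, and the retinoic acid list has its longer bar on the left.

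The label of the cells was compared with marker genes. Of 10 tested fibroblast markers 2 rose, 5 fell and 3 were not called, next to 28.9% higher and 29.0% lower of all tested measurements. Vim rose from 883 to 2249 FPKM and Fn1 from 448 to 649 FPKM. Col3a1 fell from 328 to 182 FPKM, Col1a2 from 140 to 91.7 FPKM and Pdgfrb from 10.9 to 6.58 FPKM. Col1a1, the main collagen of fibroblasts, was not called at 463 and 451 FPKM, while Lum was at 0.0123 FPKM in normoxia and listed at 0 in hypoxia. The summed level of the list was 2357 and 3704 FPKM, and without Vim it was 1474 and 1455 FPKM. Epithelial markers were also measured: of 5 tested, Krt18 rose from 313 to 443 FPKM, and Krt8 (28.3 to 10.1 FPKM), Krt14 (15.9 to 10.8 FPKM) and Cdh1 (5.93 to 3.76 FPKM) fell. Epcam was not called at 5.97 and 5.22 FPKM, and Krt5 and Cldn4 were at or below 0.0138 FPKM. The summed epithelial level was 369 and 473 FPKM, and without Krt18 it was 56.1 and 29.9 FPKM. Its part in the Hox values was not tested.

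Markers of other cells were near 0 with few exceptions. Endothelial markers stayed at or below 0.0906 FPKM, none of them tested. Of the blood markers only Cd68 was tested, and it rose from 1.32 to 2.27 FPKM, while Ptprc was listed at 0 in normoxia and at 0.00222 FPKM in hypoxia. Of 2 tested neural and glial markers Mbp rose, from 9.99 to 13.7 FPKM. The muscle marker Des was not called at 11.0371 and 9.46 FPKM, with Myod1 and Myf5 listed at 0. Of the pluripotency markers Sox2 (2.18 and 2.38 FPKM) and Nanog (1.33 and 1.23 FPKM) were not called, and Pou5f1 was listed at 0. In bulk RNA, fewer cells of a type and less RNA per cell cannot be told apart.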

How the data were processed

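RNA sequencing of 6 samples, 3 per condition, was analysed from 1 deposited table in the layout of Cuffdiff output. The submitters' processing notes name the build GRCm38 and the tools Cuffdiff 2.2.1, Cufflinks, StringTie 1.3.4d and HISAT2 2.1.0, without their order. The authors deposited 1 FPKM per gene and condition, the log2 fold change of hypoxia over normoxia, a test statistic (a score that no result uses) and the p-value and q-value of their test, per the file headers. For filters and library scaling, the sources used here state nothing.

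The 53207 rows were reduced to 51482 measurements by counting repeats of 1 value under several identifiers once. All 39 Hox genes lie inside their row's locus in GENCODE M21 (GRCm38), which gave the coordinates, 1-based. A call means a q below 0.05 from the authors. With 1 value per group no replicate test was run here. Medians used a pseudocount of 1 and a mean of at least 1 FPKM, and the pseudocount understates changes of low genes. The code that counts calls and takes medians, not the authors' own test, was tested on simulated data. It ran in Python 3.11.15 with pandas 2.3.3 and numpy 2.4.6, with figures in matplotlib 3.10.9. The Hox genes and the 16 lists (220 symbols) were chosen with earlier results of these data known. A list member that shares its row with a named gene outside the list was left out of counts. Members that share only a locus were kept, among them Pcgf5, Pknox2, Meis1, Setd1b, Dlx6, Rarb and Stra6. How reads were divided there is not described either, so those values are uncertain too. Every Hox gene of at least 1 FPKM in either condition was named. From each list, all called members were named where there were 5 or fewer, otherwise up to 4 with the largest change and up to 2 against the majority; all TALE genes were named. A few genes that these rules would name are counted but not reported here.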

Additional observations from a re-analysis of the deposited data

How the results depend on the processing

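With q below 0.01, rises went from 13 to 10 and falls from 8 to 5. Hoxa2 with Hoxa3, Hoxb2, Hoxb4, Hoxb7, Hoxc9 and Hoxd8 lost their call. With at least 2-fold, 2 rose and 1 fell. When the filter on mean level was set to 5 FPKM, 9 rises and 3 falls were left. Shares over all tested measurements were not taken at q below 0.01 or under that filter. Among the 13 tested measurements alone in their locus, a choice added after seeing the data, 8 rose, 2 fell and 3 were not called. The median log2 fold change of 0.10 became 0.39 with the filter at 5 FPKM and 0.28 for those alone in their locus. The median over all measurements was not taken under these settings. Without the most abundant gene of each cluster, the ratio of summed FPKM was 1.04 over all clusters, 0.796 for Hoxa, 1.31 for Hoxc and 0.676 for Hoxd. For measurements alone in their locus, it was 1.29 over all clusters, 1.58 for Hoxb and 1.36 for Hoxc. For Hoxa it was 1.16 over Hoxa9, Hoxa10 and Hoxa13, which reversed the Hoxa ratio of 0.961. Of these genes only Hoxa9 had the higher value in hypoxia. With single-gene rows the Hoxd ratio was 0.625. The smaller sets of genes may have a part in these shifts, and their cause was not tested. Rescaling by the median of ratios (factor 0.996) changed no direction among the 30 tested Hox measurements. Leaving out replicates was not run, and the depth behind low genes is unknown. No paired analysis was possible because the table holds 1 value per condition.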
